A study of Mus musculus with 8 samples.

Results

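Protein kinase A (PKA) is assembled from catalytic subunits and regulatory subunits, and small heat-stable inhibitor peptides bind its free catalytic subunits. The mouse genes examined here were the catalytic subunit genes Prkaca and Prkacb, the regulatory subunit genes Prkar1a, Prkar1b, Prkar2a and Prkar2b, and the inhibitor genes Pkia, Pkib and Pkig. They were chosen by gene symbol and make up 9 of the 55414 genes in the expression table. RNA-seq was performed in mpkCCD cells, which derive from mouse cortical collecting duct, and transcript abundance was given as TPM, a unit that corrects for transcript length and scales each library to the same total. Cells of one group received 50 nM tolvaptan plus 0.1 nM dDAVP for 24 h (4 libraries), and cells of the other received the vehicle plus 0.1 nM dDAVP (4 libraries, dDAVP alone). Both groups therefore carried dDAVP, a vasopressin analog that activates the V2 receptor, and differed in tolvaptan, a V2 receptor antagonist. The cells were a re-cloned subline, thus 1 clone, of a line from SV-PK/Tag transgenic mice and were grown on permeable supports. Nothing in the sample labels tells whether the libraries stem from separate cultures, and the p-values thus refer to the spread of these 8 libraries alone, which may be technical.

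In the collecting duct, vasopressin binding to the V2 receptor activates adenylyl cyclase through the stimulatory G protein, and the cAMP formed binds the regulatory subunits and releases active catalytic subunits. Type I and type II holoenzymes differ in their regulatory subunit and in where they are held in the cell, type II being held mainly by A-kinase anchoring proteins. PKA is the main kinase through which vasopressin controls the water channel aquaporin-2, by its trafficking and by transcription of its gene.

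Regulatory subunits and inhibitor peptides occupy the active site of the catalytic subunit with a short stretch that resembles a substrate. Type I regulatory subunits and the inhibitor peptides have a residue there that cannot be phosphorylated, whereas type II regulatory subunits have a serine. The coding bases of that stretch (GENCODE M21 transcripts, 5′ to 3′, 27 bases each) are shown because they encode the contact that regulatory subunits and inhibitor peptides make with the catalytic subunit, and the capitals mark the codon at the position of the phosphorylated residue of a substrate.
Prkar1a: cgacggcgccgaggtGCTatcagtgct
Prkar1b: cgtcgccggcggggcGGTgtgagtgct
Prkar2a: tttactagacgagtaTCAgtctgtgca
Prkar2b: ttcacaaggcgtgccTCGgtctgtgca
Pkia: acaggtagaagaaatGCAatacatgat
Pkib: gcaggccgccgcaatGCCttacccgac
Pkig: acaggccgtcggaatGCAgtccctgac

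Both serine codons stand in the type II genes, Prkar2a on chromosome 9 and Prkar2b on chromosome 12. The 3 inhibitor genes on chromosomes 3 (Pkia), 10 (Pkib) and 2 (Pkig) have an alanine codon at this position, as has Prkar1a on chromosome 11, and Prkar1b on chromosome 5 has a glycine codon there.

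All 9 genes were in the table, but their levels spanned a wide range. Of the 9, 7 had a maximum over 10 TPM and were read from a fit over the 9943 genes with such a maximum. Prkar1b, with a maximum of 2.40 TPM, was read from a fit over the 15016 genes with a maximum over 1 TPM. Pkib did not reach 1 TPM in any library and is given by its values alone. With dDAVP alone, Prkar1a stood highest, at the 95.1 percentile of mean TPM among genes over 10 TPM, followed by Prkaca, Pkig, Prkar2b, Prkacb, Prkar2a, Pkia, Prkar1b and Pkib. Neighbors in that order did not overlap between libraries except Pkig and Prkar2b. With tolvaptan the order of the means was the same, and Prkaca and Pkig were the neighbors that overlapped.

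Across the study, the fit over genes above 10 TPM called 16.1% of genes at an adjusted p under 0.05 (limma on log2(TPM + 1), 2-sided, Benjamini-Hochberg adjustment over all genes tested), of which 607 decreased and 994 increased with tolvaptan. The share called varied with single libraries, from 8.97% without dDAVP replicate 4 to 22.5% without tolvaptan replicate 4, and it was between 9.38% and 9.67% without any one of dDAVP replicates 1, 2 or 3 or tolvaptan replicate 2. With all libraries scaled to a common median, 825 decreased and 576 increased. The median log2 fold change of all genes tested was 0.05, and the central 95% lay between -0.51 and 0.52. Libraries of the same group correlated at a mean r of 0.953 to 0.971 across genes, with tolvaptan replicate 4 lowest. Tolvaptan replicates 2 and 3 correlated slightly more with the dDAVP libraries (0.963 and 0.961) than with their own group (0.961 and 0.959). All other libraries correlated more with their own group, although for tolvaptan replicate 1 the values were close (0.9608 against 0.9605). Read depth is not known from TPM. Aqp2, the aquaporin-2 gene, which checks the action of the antagonist, decreased from 3050 ± 164 to 272 ± 46.3 TPM (SD, n = 4 each). Of the other principal cell genes listed, Avpr2, Scnn1a, Scnn1g, Fxyd4 and Hsd11b2 were well above 10 TPM, while Elf5, Scnn1b, Aqp4 and Aqp3 stayed under 6 TPM, so the line carries only some markers of a principal cell. Of the 10 genes listed, 6 were tested, and Aqp2, Avpr2 and Fxyd4 decreased while the sodium channel genes Scnn1a (log2 fold change 0.62, adjusted p = 0.00238 from limma) and Scnn1g (0.42, adjusted p = 0.0014 from limma) increased. Defining genes of intercalated, thick limb, distal convoluted tubule and fibroblast cells stayed under 3 TPM in every library. Of the endothelial and immune genes, Cd68 reached 6.85 TPM and the others stayed under 1 TPM, with sums of 6.09 to 7.45 TPM with dDAVP alone and 5.99 to 7.09 TPM with tolvaptan. The summed intercalated cell genes, mostly Slc4a9, ranged from 2.29 to 2.51 TPM with dDAVP alone and from 0.96 to 1.61 TPM with tolvaptan. The summed proximal tubule genes, nearly all Lrp2, ranged from 8.24 to 8.82 and from 10.95 to 11.93 TPM, and the part of either in the results for the PKA genes was not tested.

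Among the 7 members in the fit over 10 TPM, Prkar1a decreased, Pkia increased, and the other 5 did not pass. Prkar1b passed in the fit over 1 TPM, a call that was lost without a filter (adjusted p = 0.0827 from limma) and in 5 of the 8 fits without 1 library. Beside the 2 members called in the fit over 10 TPM, Prkar1a and Pkia, stands the share of 16.1% called among all genes in it, and 6.10% were called lower. Pkia entered that fit only through its tolvaptan libraries, and without a filter it was still called (adjusted p = 0.0291 from limma). In the fit over 1 TPM, from which Prkar1b was read, 6.92% of genes were called higher. Nothing particular to the family is read from these counts. In a bulk library, fewer cells of a type and less RNA per cell cannot be told apart.

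**Figure D1:**
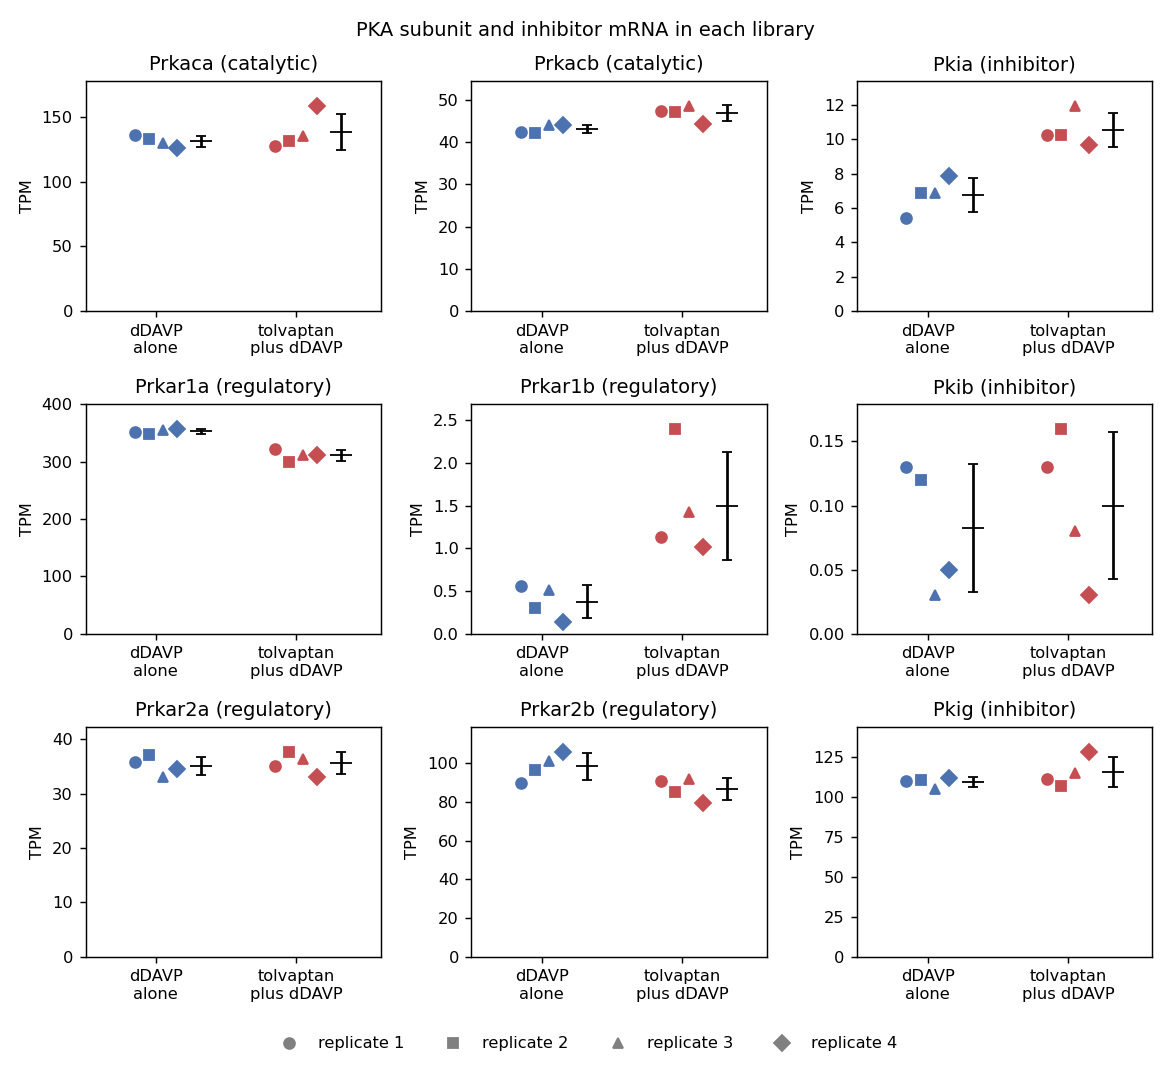
TPM of each of the 9 PKA genes (y axes, TPM, each panel with its own scale starting at 0) in the 4 libraries given dDAVP alone and the 4 given tolvaptan plus dDAVP. Each point is 1 library, with the same symbol for the same replicate number, and the bars give the mean and SD. All tolvaptan libraries of Prkar1a lie below those with dDAVP alone, and those of Prkacb, Prkar1b and Pkia lie above them.

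Neither catalytic subunit gene passed the test, and Prkaca stood at about 3 times the level of Prkacb in both groups. Prkaca, which encodes the α catalytic subunit (ENSMUSG00000005469), was at 136, 133, 129 and 126 TPM in dDAVP replicates 1 to 4 and at 127, 131, 135 and 159 TPM in tolvaptan replicates 1 to 4. The groups overlapped, and the value of 159 TPM in tolvaptan replicate 4 stood above all other libraries. The means were 131 ± 4.42 and 138 ± 14.1 TPM (SD, n = 4 each). With tolvaptan the log2 fold change was 0.07 (SE 0.07, 95% interval -0.08 to 0.22, adjusted p = 0.512 from limma), and without tolvaptan replicate 4 it was 0.00.

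Prkacb, which encodes the β catalytic subunit (ENSMUSG00000005034), was at 42.4, 42.1, 44.1 and 44.0 TPM with dDAVP alone and at 47.5, 47.1, 48.7 and 44.2 TPM with tolvaptan. The groups did not overlap, although the lowest tolvaptan library exceeded the highest dDAVP library by only 0.13 TPM. In the fit over 10 TPM, 23.1% of all genes had groups that did not overlap, and among the members read from it these were Prkacb, Prkar1a and Pkia. The log2 fold change of Prkacb was 0.12 (SE 0.05, 95% interval 0.01 to 0.22), which did not pass after adjustment (adjusted p = 0.118 from limma). Without tolvaptan replicate 4 it was 0.14 and passed (adjusted p = 0.0223 from limma). That library was the highest of its group for Prkaca and the lowest for Prkacb. Prkaca made up 75.2% ± 1.04 of the summed catalytic TPM with dDAVP alone and 74.5% ± 2.47 with tolvaptan (SD, n = 4 each).

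Among the regulatory subunits, the abundant Prkar1a decreased, and both type II genes missed the threshold. The scarce Prkar1b was higher with tolvaptan, with a call that depended on the filter and on single libraries. Prkar1a encodes the type I α subunit (ENSMUSG00000020612), the widely expressed type I subunit that holds catalytic subunits inactive when cAMP is low. Its level was 351, 349, 356 and 358 TPM with dDAVP alone and 322, 299, 312 and 312 TPM with tolvaptan. All tolvaptan libraries were lower, with a gap of 27 TPM between the groups, and the spread within each group was small. The mean decreased from 353 ± 4.28 to 311 ± 9.16 TPM (SD, n = 4 each), a change of -11.9%. The log2 fold change was -0.18 (SE 0.04, 95% interval -0.27 to -0.10, adjusted p = 0.00861 from limma). Prkar1a passed in all 8 fits without 1 library (adjusted p from limma between 0.00493 and 0.0282) and in all 10 other settings tried (between 0.00378 and 0.0459). The change lay within the central 95% of all genes tested (-0.51 to 0.52), and 71.99% of them had a smaller absolute log2 fold change.

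The promoter of Prkar1a is shown because its mRNA decreased and because CREB, the cAMP response element binding protein, is a PKA substrate. The window (RefSeq, GRCm38.p6, + strand, chr11:109650699-109650998) holds the palindromic cAMP response element TGACGTCA, starting 49 bases upstream of the start annotated for this window. The shorter TGACG starts 187 bases upstream, and both are in capitals.
Prkar1a: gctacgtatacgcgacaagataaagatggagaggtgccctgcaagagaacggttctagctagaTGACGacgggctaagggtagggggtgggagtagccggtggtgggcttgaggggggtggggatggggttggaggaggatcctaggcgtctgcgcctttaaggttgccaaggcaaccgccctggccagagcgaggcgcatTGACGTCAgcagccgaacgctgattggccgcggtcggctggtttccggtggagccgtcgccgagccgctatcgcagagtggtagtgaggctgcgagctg

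Across 32851 windows of the same length, 1.79% held TGACGTCA on either strand, which is 2.03% of the 27025 genes with a window. Of the 8 PKA genes with a window, 1 held it, Prkar1a, in 2 overlapping windows of neighboring start sites. Counted from the start of the window not shown, the same TGACGTCA begins at transcribed base 39, thus downstream of that start. The shorter TGACG, or its reverse complement CGTCA, which also lies within TGACGTCA, stood in 20.8% of all windows and 23.0% of all genes with a window, and in 8 of the 24 windows of the PKA genes. The 6 genes with such a match were Prkaca, Prkacb, Prkar1a, Prkar1b, Prkar2a and Pkig, and the windows of Pkib and Prkar2b held none. The 8 PKA genes had 24 windows, against 32851 for 27025 genes, so a match per gene was likelier for them. The 2 overlapping windows of Prkar1a hold the same sites and both count among the 8 windows. Pkia had no entry. For Prkar1b, the other type I gene, the match lies 49 bases upstream of the start and is shown with its flanks, the motif in capitals.
Prkar1b: gagggcggagTGACGggcaggagga

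A match in these letters is a description of the sequence, and binding of CREB was not measured. Whether these motifs had a part in the decrease of Prkar1a was not tested.

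Prkar1b encodes the type I β subunit (ENSMUSG00000025855), known mainly from brain. It was at 0.56, 0.30, 0.51 and 0.14 TPM with dDAVP alone and at 1.13, 2.40, 1.43 and 1.02 TPM with tolvaptan. Every tolvaptan library was higher, but the levels were low and it passed the filter of 1 TPM only through the tolvaptan libraries, and in the fit over 1 TPM 13.3% of genes had all tolvaptan libraries above all others. The means were 0.378 ± 0.194 and 1.495 ± 0.628 TPM (SD, n = 4 each), a ratio of 3.96. On the log2(TPM + 1) scale, which understates changes of low genes, the log2 fold change was 0.84 (SE 0.21, 95% interval 0.37 to 1.30, adjusted p = 0.0325 from limma). The fitted value depended on the pseudocount, with 1.77 at a pseudocount of 0.1 and 0.27 at 5. The call was lost without any one of dDAVP replicates 1, 2, 3 or 4 or tolvaptan replicate 3 (adjusted p from limma between 0.0242 and 0.0832 over the 8 such fits), and without a filter on low values (adjusted p = 0.0827 from limma), where 1.25% of genes were called higher. It was also lost after quantile normalization (log2 fold change 0.70, adjusted p = 0.0642 from limma) and with replicate number as a block (adjusted p = 0.0825 from limma). Of the 3810 exonic bases of Prkar1b in GENCODE M21, 341 are shared with Gm15672 on the same strand. Gm15672 itself stood at 1.10 ± 0.242 TPM with dDAVP alone and 1.10 ± 0.190 TPM with tolvaptan (SD, n = 4 each), and its part in the values of Prkar1b was not tested.

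Prkar2a, which encodes the type II α subunit (ENSMUSG00000032601), was at 35.8, 37.0, 33.1 and 34.6 TPM with dDAVP alone and at 35.2, 37.8, 36.5 and 33.1 TPM with tolvaptan. The groups overlapped throughout. Its log2 fold change was 0.02 (SE 0.06, 95% interval -0.11 to 0.14, adjusted p = 0.854 from limma). This interval leaves room for a change of Prkar2a in either direction and does not show that its level was the same.

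Prkar2b, which encodes the type II β subunit (ENSMUSG00000002997), was at 90.1, 96.5, 101 and 106.13 TPM with dDAVP alone and at 90.7, 85.4, 91.7 and 79.5 TPM with tolvaptan. Its mean was lower with tolvaptan, 86.8 ± 5.63 against 98.5 ± 6.88 TPM (SD, n = 4 each), but dDAVP replicate 1 lay within the range of the tolvaptan libraries. The log2 fold change of -0.18 (SE 0.06, 95% interval -0.32 to -0.04) was of the same size as that of Prkar1a, with a wider error, and did not pass (adjusted p = 0.0838 from limma). With a common median it was -0.23 and passed (adjusted p = 0.0476 from limma). Whether Prkar1a and Prkar2b differed from each other in their change was not tested.

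The inhibitor genes differed in level by orders of magnitude, and the one of intermediate level, Pkia, increased. Pkia encodes the α inhibitor peptide (ENSMUSG00000027499), which blocks free catalytic subunits and carries them out of the nucleus. It was at 5.43, 6.87, 6.86 and 7.86 TPM with dDAVP alone and at 10.3, 10.2, 11.96 and 9.65 TPM with tolvaptan. All tolvaptan libraries were higher, with a gap of 1.79 TPM, and dDAVP replicate 1 was the lowest of its group. Means were 6.76 ± 1.00 and 10.5 ± 0.995 TPM (SD, n = 4 each), a 1.56-fold increase. The log2 fold change was 0.58 (SE 0.13, 95% interval 0.30 to 0.86, adjusted p = 0.0132 from limma), and 95.9% of genes tested had a smaller absolute value. Pkia passed the filter of 10 TPM only through the tolvaptan libraries. Without a filter it was still called (adjusted p = 0.0291 from limma). It was also called in all 8 fits without 1 library (adjusted p from limma between 0.0116 and 0.0342), but these kept the same filter. Under a filter on a mean over 10 TPM, Pkia is left out and has no result. After quantile normalization the log2 fold change was 0.47 and missed the threshold (adjusted p = 0.0514 from limma).

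Pkig, which encodes the γ inhibitor peptide (ENSMUSG00000035268), was the most abundant inhibitor. It was at 110, 110, 105 and 112 TPM with dDAVP alone and at 111, 106.47, 115 and 128 TPM with tolvaptan. The groups overlapped, with tolvaptan replicate 4 above the rest as it was for Prkaca. The log2 fold change was 0.07 (SE 0.06, 95% interval -0.06 to 0.20, adjusted p = 0.423 from limma).

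Pkib, which encodes the β inhibitor peptide (ENSMUSG00000019876), was listed at 0.13, 0.12, 0.03 and 0.05 TPM with dDAVP alone and at 0.13, 0.16, 0.08 and 0.03 TPM with tolvaptan. The values of both groups lay in the same range, and at this level no difference could be detected.

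**Figure D2:**
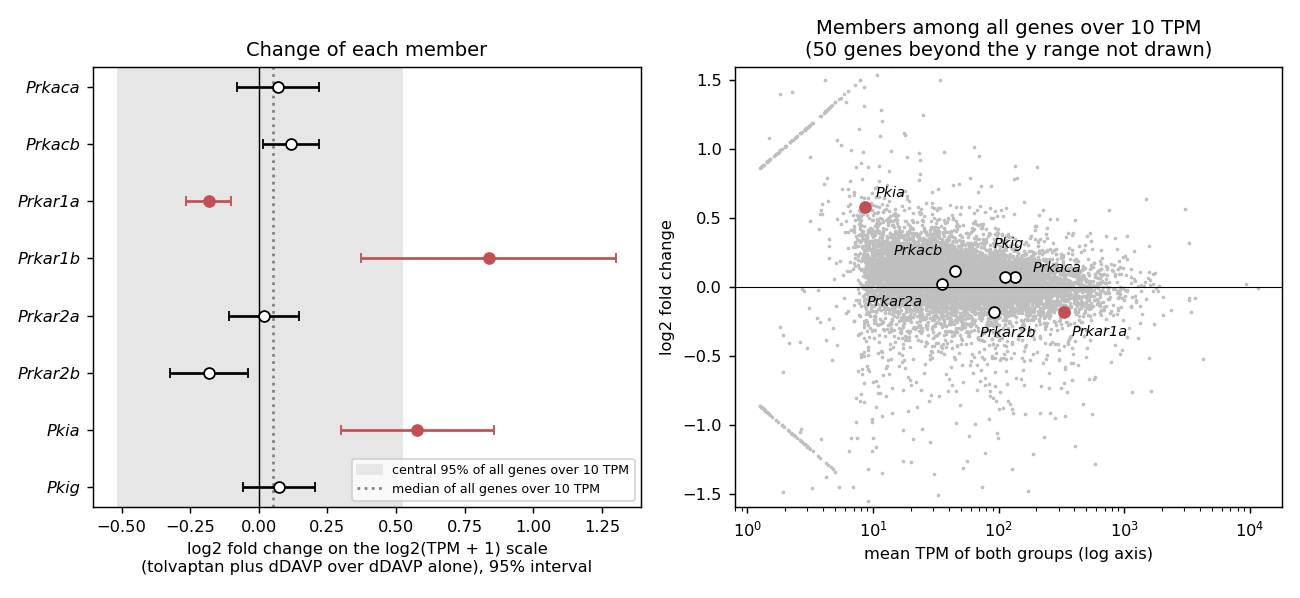
Left, log2 fold change of each tested member on the log2(TPM + 1) scale (x axis, tolvaptan plus dDAVP over dDAVP alone) with its 95% interval, filled red where the adjusted p was under 0.05, beside the central 95% (gray) and the median (dotted) of all genes over 10 TPM. Prkar1b comes from the fit over 1 TPM, and the gray band holds no genes as low as it. Right, the 7 members over 10 TPM among the 9943 genes (gray points, log2 fold change against mean TPM on a log axis), with Pkia at 0.58 above and Prkar1a at -0.18 below 0.

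Because TPM are corrected for transcript length, the levels of the members can also be set side by side within a library, as a description with no test. The summed catalytic TPM was 174 ± 3.57 with dDAVP alone and 185 ± 12.5 with tolvaptan, and the groups overlapped. The summed regulatory TPM was 487 ± 9.35 and 435 ± 11.7 (SD, n = 4 each), and the groups did not overlap. Of this difference of -52.3 TPM, Prkar1a contributed 80.6% and Prkar2b 22.4%, while Prkar1b and Prkar2a contributed small amounts in the opposite direction. Regulatory mRNA per catalytic mRNA was 2.68, 2.76, 2.83 and 2.94 with dDAVP alone and 2.57, 2.38, 2.40 and 2.10 with tolvaptan. Every tolvaptan library had a lower ratio, and tolvaptan replicate 4 had the lowest. The mean was 2.80 ± 0.111 against 2.36 ± 0.193 (SD, n = 4 each), and without tolvaptan replicate 4 the tolvaptan mean was 2.45. These ratios are of mRNA, and the amounts of the proteins were not measured.

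**Figure D3:**
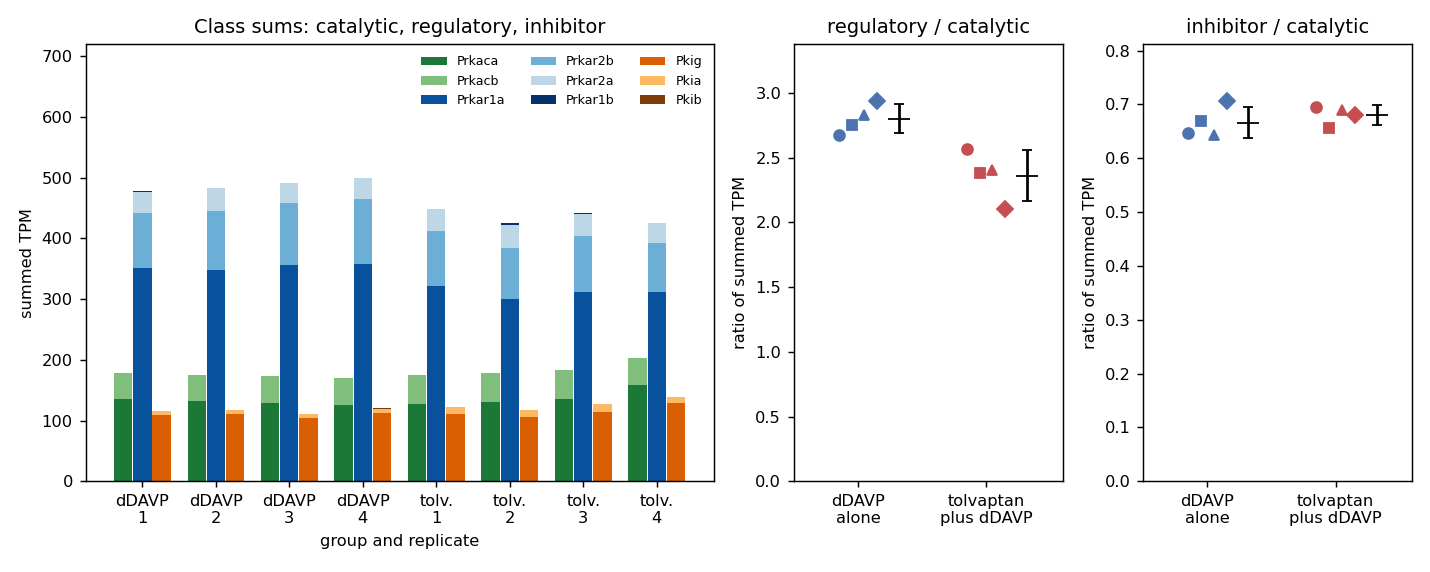
Left, summed TPM (y axis, from 0) of the catalytic, regulatory and inhibitor genes in each of the 8 libraries (tolv., tolvaptan plus dDAVP), with the members stacked in each bar. Middle and right, the ratios of summed regulatory and summed inhibitor TPM to summed catalytic TPM, with points for libraries and bars for the mean and SD; the regulatory ratio is 2.80 with dDAVP alone and 2.36 with tolvaptan, while the inhibitor ratio overlaps.

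Prkar1a made up 72.5% ± 0.745 of the summed regulatory TPM with dDAVP alone and 71.5% ± 1.33 with tolvaptan (SD, n = 4 each). Prkar2b made up 20.2% ± 1.04 and 19.9% ± 0.905, with overlapping groups as for Prkar1a. Prkar2a made up 7.21% ± 0.445 and 8.19% ± 0.517, and Prkar1b 0.0778% ± 0.0406 and 0.345% ± 0.151, and for both every tolvaptan library had the higher share. The TPM of Prkar2a itself overlapped between the groups (35.1 ± 1.67 and 35.6 ± 2.01, SD, n = 4 each), while the summed regulatory TPM was lower with tolvaptan. Inhibitor mRNA per catalytic mRNA was 0.666 ± 0.0292 and 0.681 ± 0.0180, and the groups overlapped. Within the inhibitors, Pkia made up 5.82% ± 0.793 and 8.41% ± 1.03 of the summed TPM, again with no overlap, and Pkig took nearly all of the rest in both groups. The share of Pkia is built from the same values as its call and is not a separate result.

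Variation between libraries of one group was not alike for all members. Prkar1a had the smallest coefficient of variation in both groups, 1.21% with dDAVP alone and 2.94% with tolvaptan. For Prkaca it was 3.38% and 10.2%, and tolvaptan replicate 4 lay 0.20 above its group mean on the log2 scale. The same library lay 0.16 above its group for Pkig and 0.12 below it for Prkar2b (a deviation of -0.12), and the spread of all genes around the rest of its group was also the widest, with an SD of 0.445 against 0.365 to 0.392 for the other tolvaptan libraries. Prkar1a and Pkia were both called without this library.

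**Figure D4:**
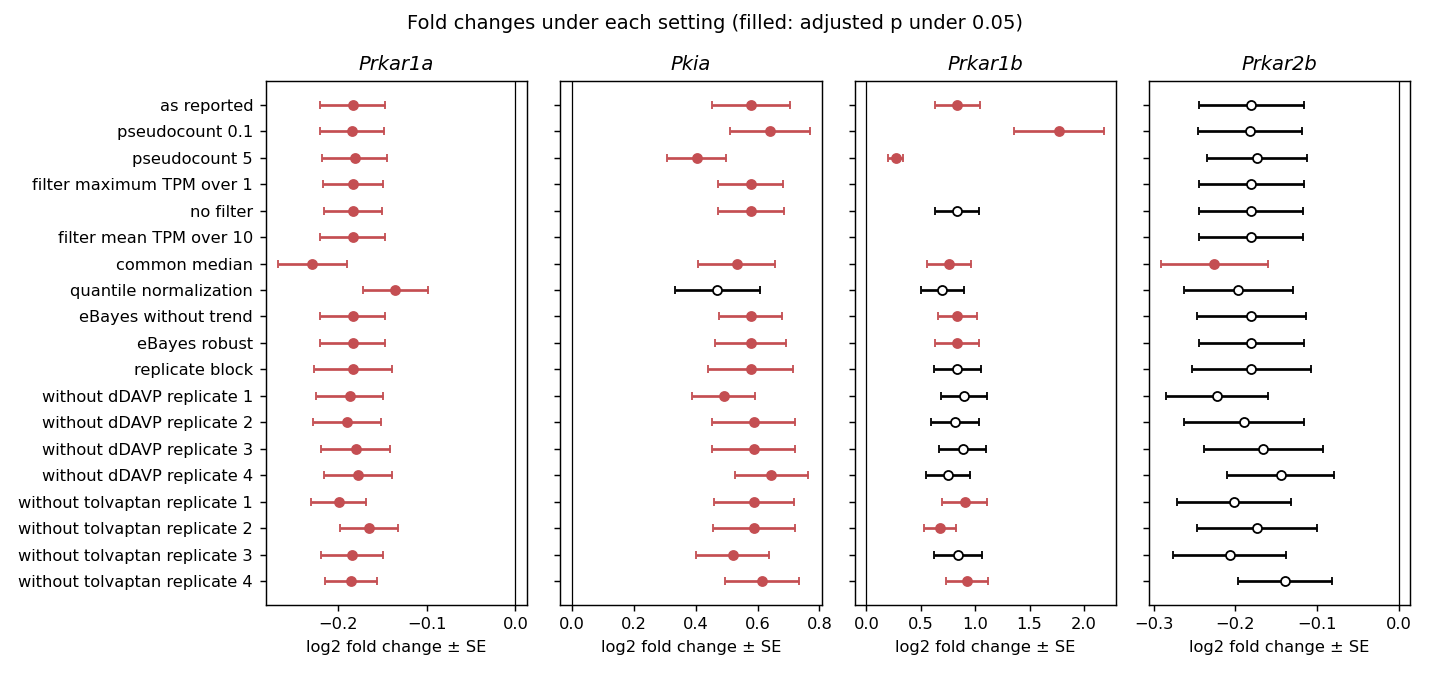
Log2 fold change with its SE (x axes) of Prkar1a, Pkia, Prkar1b and Prkar2b as reported and under each other setting (y axis), filled red where the adjusted p from limma was under 0.05; no point is drawn where the gene left the filter. Prkar1a was called in every setting drawn, Pkia in all but quantile normalization, Prkar1b in only some, and Prkar2b with a common median alone.

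The genes whose log2 levels followed Prkar1a most closely over the 8 libraries, by the root mean square difference after centering each gene, were Atp6v1e1, which encodes a subunit of the vacuolar proton pump, at 0.0262, the chloride intracellular channel gene Clic4 at 0.0277, and Acaa2, a gene of mitochondrial fatty acid oxidation, at 0.0285. For Pkia they were the stromelysin gene Mmp11 at 0.0984, Erfe, which encodes erythroferrone, at 0.101, and 4930518I15Rik at 0.102. The distances were larger for Pkia, whose own libraries were more spread.

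For comparison with the counts of the related lists, 607 of all 9943 genes tested decreased and 994 increased, and the lists are described by their counts alone. Upstream of PKA, the list for cAMP production held 16 genes, of which 6 were tested, 2 decreased and 1 increased (median log2 fold change -0.05, against 0.05 over all genes tested). The V2 receptor gene Avpr2 decreased by 0.40 on the log2 scale (adjusted p = 0.00049 from limma). The cyclase gene Adcy6 (-0.25, adjusted p = 0.0304 from limma) and the stimulatory G protein gene Gnas (0.19, adjusted p = 0.0226 from limma) passed too, but each in only 3 of the 8 fits without 1 library. Of 16 cAMP phosphodiesterase genes, 3 were tested and 1 decreased. This was Pde4b, which fell by 1.67 on the log2 scale (adjusted p = 5.55e-07 from limma), while Pde4c (-0.35, adjusted p = 0.0831 from limma) and Pde7a (0.00, adjusted p = 0.98 from limma) did not pass.

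Among 24 A-kinase anchoring protein genes, which place PKA in the cell, 15 were tested, 2 decreased and 2 increased (median log2 fold change 0.09). Akap12 (-0.56, adjusted p = 0.00075 from limma) and Ezr, the ezrin gene (-0.26, adjusted p = 0.00494 from limma), were the ones that decreased. Pakap increased (0.45, adjusted p = 0.0398 from limma), a call that held in 2 of the 8 fits without 1 library. Of the other cAMP effectors, only Rapgef3, a cAMP-activated exchange factor, was tested, and it did not pass (-0.12, adjusted p = 0.298 from limma).

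Of 8 genes whose products modify or bind PKA subunits, 7 were tested and 0 were called by limma. The related kinase gene Prkx was the only one of them with an unadjusted p under 0.05 (log2 fold change 0.20, adjusted p = 0.121 from limma). Of 24 genes for PKA substrates, 21 were tested, 4 decreased and 1 increased. Aqp2 fell by 3.49 on the log2 scale (adjusted p = 3.11e-08 from limma) and Crem, the gene of a cAMP-responsive transcription factor, changed by -1.27 (adjusted p = 5.87e-05 from limma). Stmn1, the stathmin gene, increased by 0.37 (adjusted p = 0.000535 from limma).

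The kinases most like PKA are those of the AGC group, to which it belongs. Of 40 other genes of this group, 28 were tested, 0 decreased and 3 increased, with a median log2 fold change of 0.08. Over all 9943 genes tested, 994 were called higher, and nothing particular to the list is read from its count. The 3 genes of the list that increased were Dmpk (0.47, adjusted p = 0.00541 from limma), Prkcz (0.37, adjusted p = 0.00876 from limma) and Prkci (0.18, adjusted p = 0.0165 from limma). Prkaca and Prkacb had log2 fold changes of 0.07 and 0.12.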

How the data were processed

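RNA was extracted from mpkCCD cells and made into cDNA libraries that were sequenced in pairs. The authors used STAR for alignment to a mouse Ensembl genome and estimated TPM with RSEM (versions not given in the sources used here), and the deposited table holds 1 TPM value per gene and library. TPM sum to a fixed total, so read depth is unknown, no counting interval can be given, and the DESeq2 test of the study, which needs expected counts, could not be run. Columns with each gene's lowest and highest TPM, given by the authors as other values, equal the extremes recomputed for all 55414 genes and were not used.

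Values on the log2(TPM + 1) scale of the groups (4 libraries each) were compared in limma 3.58.1 (R 4.3.3) with lmFit and eBayes with a trend, 2-sided, with Benjamini-Hochberg adjustment over all genes over the filter (maximum TPM over 10; over 1 for Prkar1b). An adjusted p under 0.05 was a call. The fit was also run on simulated data, with noise drawn independently for each gene and library. Its outcome is not reported here, and no result rests on it. The members and lists were chosen with earlier results of these data known. Named genes were the 9 members, up to 3 genes of smallest p from each of 7 related lists, and the 3 genes nearest in pattern to each member called over 10 TPM. Marker genes were named after their values were seen. Coding bases and exon overlaps came from GENCODE M21 and promoters from RefSeq, both other annotations than the authors' build. Figures were drawn with matplotlib 3.10.9. Alternatives were other pseudocounts, filters, scalings and variance models, the ratio of mean TPM, a replicate block and leaving out each library.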

Additional observations from a re-analysis of the deposited data

Results flagged for a closer look

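In tolvaptan replicate 4, Prkaca made up 78.2% of the summed catalytic TPM, against 72.8%, 73.6% and 73.5% in the other 3 tolvaptan libraries, a gap that passed Dixon's test for 4 values at its 95% critical value. Such a test marks about 1 in 20 groups by chance. In each group it was applied to the TPM of each of the 9 members and to several ratios and shares. No other value passed, and a single pass among so many tests can arise by chance. In that library Prkaca was the highest and Prkacb the lowest of the tolvaptan group.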

How the results depend on the processing

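Of 141 member results under an alternative with a test, 130 kept their direction and side of the threshold, 9 lost a call, 2 gained one and 0 reversed; 4 of those kept, all of Prkar2a, changed sign around 0 without being called. Without a filter, 498 genes were called higher, and 1 member; with a filter on a mean over 10 TPM, 1 member was called higher, since Pkia leaves that filter. With a common median, 576 genes over 10 TPM were called higher, 41.1% of all called against 62.1% as reported, and over 1 TPM 1021 were called lower and 448 higher, with 2 members lower. After quantile normalization, 612 genes (47.4% of those called) and 566 over 1 TPM were called higher, and 0 members. The log2 ratio of mean TPM of Prkar1b was 1.99. Leaving out each library in turn gave 406 to 834 genes lower and 463 to 1403 higher over 10 TPM, 424 to 850 lower and 481 to 1460 higher over 1 TPM, and among members 1 lower and 1 to 3 higher. The cause of these changes was not tested. Depth behind the low values of Prkar1b and Pkib is unknown.

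With replicate number as a block, 396 genes over 10 TPM were called lower and 515 higher, 360 and 391 over 1 TPM, and 1 member was higher, Prkar1b being lost (adjusted p = 0.0825 from limma). Replicate numbers gave no sign that the libraries are paired. Deviations of same-numbered libraries correlated across genes between -0.07 and 0.00, within the range of differently numbered ones (-0.10 to 0.17). These correlations cannot show that no pairing exists.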

Other observations

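The pseudogene Prkaca-ps1 was listed at 0.06 TPM in dDAVP replicate 3 and at 0 in the other 7 libraries.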
